A study of Mus musculus with 3 samples.

Results

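The genes followed here, 10 in number, serve cytosolic nucleic acid sensing: the RIG-I-like receptor arm (Ddx58, Ifih1, Dhx58 and the adaptor Mavs), Aim2, and 5 genes of the Ifi200 family (Ifi203, Ifi204, Ifi205, Ifi209 and Mndal). They were chosen by symbol, and each was found among the 55536 annotated genes of the deposited tables. The cells were macrophages differentiated from bone marrow of C57BL/6J mice, the common laboratory strain, and RNA came from their cytosolic fraction after 50 min with lipid A at 100 ng/ml. Lipid A is the part of bacterial lipopolysaccharide that is recognised by Toll-like receptor 4. Ribosomal RNA was depleted before total RNA-seq. The 3 libraries form 1 group, with no unstimulated cells, other times or other fractions, so the data give levels in stimulated cells and no response to lipid A. No deletion, transgene or second agent is named, sex and age were not collected, and all libraries carry the same donor label. They are labelled as biological replicates 1, 2 and 3, but no label says whether they came from separate animals or cultures, so each p-value below measures only the spread between these libraries, which may be technical.

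RIG-I (encoded by Ddx58) and MDA5 (Ifih1) are helicases that bind viral RNA in the cytosol and then assemble with MAVS, an adaptor on the mitochondrial surface, from which the kinases that activate IRF and NF-kB factors are engaged. LGP2 (Dhx58) binds RNA but lacks the signalling domains of the other sensors and modulates them. AIM2 binds double-stranded DNA in the cytosol and recruits the adaptor ASC to form an inflammasome. AIM2 and the Ifi200 proteins belong to the PYHIN family, defined by a pyrin domain and DNA-binding HIN domains, and their mouse genes lie in a cluster on chromosome 1. Most of these genes are known as interferon-inducible.

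Interferon-inducible genes often carry an interferon-stimulated response element, so promoters of the 10 genes were searched for the letters GAAANNGAAA on both strands, from 250 bases before to 50 bases after each start in the RefSeq table (build GRCm38.p6). The table matched 8 of the 10 genes with 10 promoters, all but Ifi204 and Dhx58. The letters occurred in 6 of these 10 promoters, belonging to 5 of the 8 genes, against 3.44% of all 32851 promoters. The members were picked by name from a family known to respond to interferon, so no test was made of this difference. The stretches below are shown because they hold those matches. Each is 30 bases of the gene's own strand, 5′ to 3′, with the match in capitals. A match on the opposite strand reads TTTCNNTTTC.
Mndal, chr1:173880204-173880233, minus strand: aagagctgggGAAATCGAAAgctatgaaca
Ifi203, chr1:173942508-173942537, minus strand: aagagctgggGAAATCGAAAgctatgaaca
Ifi205, chr1:174031870-174031899, minus strand: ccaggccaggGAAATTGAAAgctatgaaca
Ifi205, chr1:174031713-174031742, minus strand: ataccccattTTTCACTTTCtcagttactg
Mndal, chr1:173879993-173880022, minus strand: ttttgagtcaTTTCTCTTTCtactcaaaac
Ifih1, chr2:62646206-62646235, minus strand: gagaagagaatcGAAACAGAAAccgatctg
Ddx58, chr4:40239804-40239833, minus strand: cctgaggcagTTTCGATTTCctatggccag

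The Mndal and Ifi203 stretches in the first pair of lines are the same 30 letters at positions about as far from their starts. The match begins 36 bases before the Mndal start at position 173880187 and 35 bases before the Ifi203 start at position 173942492. Over the whole 250 bases before these starts, the aligned sequences were 89.3% identical (233 of 261 aligned columns), whereas Ifi203 and Ifi205 were 47.9% identical. In Ifi205 the match on the gene's own strand begins 134 bases before the start and is followed by the same 10 letters, gctatgaaca, as in the other pair. The second Mndal stretch belongs to an alternative RefSeq start at position 173879958. The Ddx58 match begins 2 bases after its RefSeq start and lies inside the first exon of the transcript Ddx58-201. The Ifih1 match begins 32 bases after its RefSeq start and lies just upstream of the start of Ifih1-201 at position 62646211. Aim2, Ifi209 and Mavs held no such letters in this window. For Aim2 the window lies around the RefSeq start at position 173420604, near the start of the transcript Aim2-205 at position 173420598. The transcript Aim2-204, which held 37.4% of Aim2 TPM on average, starts at position 173455354, and the bases around that start were not searched. The STAT motif TTCNNNGAA was found in none of the 10 promoters, against 8.30% of all promoters, and the NF-kB motif in 1 promoter of Ifi209 and the more upstream promoter of Ifi203, against 8.46% of all promoters. A match describes the letters only.

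Depth was 33044910, 36769402 and 36522216 expected counts in libraries 1, 2 and 3, so 3 counts correspond to at most 0.0908 CPM (counts scaled to library size), far below the level of any of the 10 genes. All 8 macrophage markers examined were detected, with a median of 299 TPM (read density per transcript length, scaled to the same total in each library). Of 38 markers of T and NK, B, neutrophil, dendritic, stromal, endothelial, mast and erythroid cells, 34 never reached 1 TPM and 7 were without a count throughout, among them Cd3e and Ly6g. Their summed level was 53.6 to 77.4 TPM, nearly all of it from Cd4, S100a8 and S100a9. Library 2 had the most of the nuclear RNAs Malat1 and Neat1, which were picked after their values were seen, and lower TPM of protein-coding genes. Over all genes tested it did not stand apart in the number called as varying (edgeR goodness of fit). That number was 91 without library 2, 89 without library 3 and 132 without library 1. The nuclear RNA Malat1 was at 11.06, 12.35 and 10.07 log2 CPM in libraries 1, 2 and 3 (adjusted p = 3.91e-09, edgeR goodness of fit), and Neat1, also nuclear, was at 7.71, 9.15 and 7.40 log2 CPM. In the first quantification, which is used here unless a second is named, TPM of protein-coding genes as a whole was lower in library 2. The median difference was 0.48 on the log2 scale against library 1 and 0.40 against library 3.

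All 10 genes reached 1 TPM in every library, as did 41.4% of protein-coding genes (9128 of 22028). The median of their mean levels was 26.5 TPM, and the medians within libraries 1, 2 and 3 were 30.5, 19.1 and 29.8 TPM (SD 6.43). The median of the detected protein-coding genes was 9.40 TPM. Without library 2 the members' median was 30.2 TPM.

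In the RIG-I-like receptor arm, the sensors lay above the adaptor. Ddx58 (chr4:40203773-40239828, minus strand) was at 30.8, 20.1 and 32.2 TPM in libraries 1, 2 and 3, on 4590, 4486 and 5670 expected counts. Ifih1 (chr2:62595798-62646255, minus strand) was at 19.6, 11.6 and 19.0 TPM. Both sensors were lowest in library 2, and Ddx58 was above Ifih1 in 3 of 3 libraries, by 0.70 ± 0.07 on the log2(TPM + 1) scale (SD, n = 3). Dhx58 (chr11:100694884-100704271, minus strand), the gene of the modulator LGP2, was at 19.3, 16.1 and 23.9 TPM. Mavs (chr2:131234063-131248025, plus strand) was at 13.6, 8.67 and 12.0 TPM, the lowest mean of the 10 genes. The adaptor was below Ddx58 in each library, with differences of -1.12, -1.13 and -1.35 on the log2(TPM + 1) scale (mean -1.20 ± 0.13, SD, n = 3). It was below Ifih1 by a mean of -0.50 ± 0.12 and below Dhx58 by -0.74 ± 0.24 on the same scale, again in 3 of 3 libraries.

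The DNA-sensing and Ifi200 genes spanned a wider range and were mostly higher. Aim2 (chr1:173350879-173466040, plus strand), the inflammasome sensor, was at 30.3, 17.99 and 27.4 TPM. Ifi204 (chr1:173747293-173766943, minus strand), which encodes the p204 protein and is known as a mouse DNA-binding relative of human IFI16, was the highest of the 10 genes, at 120.8, 91.4 and 111.7 TPM. Even its lowest library lay above every library of the other 9 genes. Ifi204 was above Aim2 by 2.08 ± 0.18 on the log2(TPM + 1) scale (SD, n = 3).

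Mndal (chr1:173849126-173942491, minus strand) was at 69.6, 44.1 and 67.4 TPM. Ifi203 (chr1:173920407-173942672, minus strand) was at 63.0, 41.5 and 60.1 TPM. These HIN-domain genes stayed close to each other in every library, and Ifi203 was below Mndal by -0.13 ± 0.04 on the log2(TPM + 1) scale (SD, n = 3). Ifi205 (chr1:174011998-174031810, minus strand) followed at 48.0, 36.0 and 47.5 TPM. Ifi209 (chr1:173630917-173647928, plus strand) was the lowest of the Ifi200 genes described, at 22.3, 14.7 and 24.2 TPM.

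**Figure D1:**
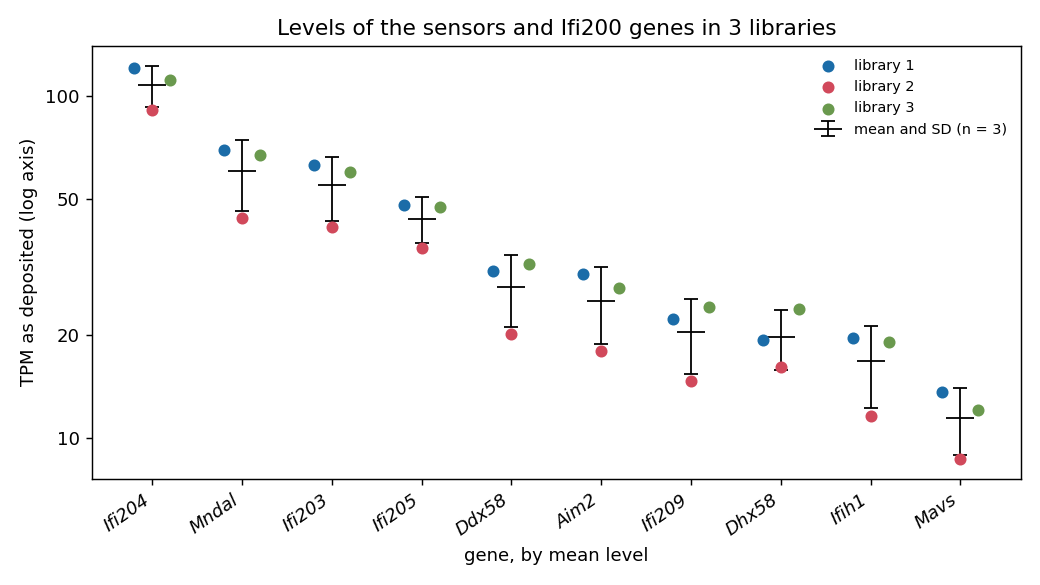
TPM of the 10 genes in each library (points, log axis) with the mean and SD over 3 libraries (black). Ifi204 is highest and Mavs lowest, and library 2 gives the lowest TPM for each gene in the first quantification, shown here.

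By mean log2(TPM + 1) the order was Ifi204, Mndal, Ifi203, Ifi205, Ddx58, Aim2, Ifi209, Dhx58, Ifih1 and Mavs. Of the 9 neighbouring pairs in this order, 7 kept their order in 3 of 3 libraries. The pairs that did not were Ifi209 and Dhx58, which differed by 0.03 ± 0.16, and Dhx58 and Ifih1, which differed by 0.25 ± 0.24 on the log2(TPM + 1) scale (SD, n = 3). Ddx58 and Aim2 kept their order but were only 0.02 apart in library 1 (mean 0.13 ± 0.10). With 3 libraries the smallest p that sign flipping can give is 0.25, so the order was not tested. Summed, the 4 genes of the RIG-I-like arm reached 75.6 ± 16.7 TPM and the other 6 genes 313 ± 58.5 TPM (SD, n = 3).

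None of the 10 genes varied between libraries beyond the spread usual for its level. In edgeR's goodness of fit test 0 of 10 were called at an adjusted p of 0.05, against 1.66% of all 12231 genes tested (203 genes). None had an unadjusted p under 0.05 either: Dhx58 had the smallest, 0.17, and Ifi204 the largest, 0.946, and each adjusted p was 1. With dispersions taken from DESeq2's trend 0 of 10 were called too, against 1.56% of all genes tested, and over all alternatives tried 0.922 was the lowest adjusted p of a member. On simulated counts the test called 99 of 100 genes that were moved 4-fold in a library but 33 of 100 moved 2-fold. The moved genes were drawn from all with a mean count of at least 50, and among such genes differences under 2-fold would mostly not be called. The 10 genes had at least 1144 counts in each library, and the share called at their levels was not determined.

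Scaled by the trimmed mean of M values (TMM), which sets aside the overall shift of library 2, the levels were close. Ifi204 was at 8.31, 8.37 and 8.28 log2 CPM in libraries 1, 2 and 3, the smallest range of the 10 genes (0.09). Dhx58 was at 5.67, 5.87 and 6.10 log2 CPM, the largest range (0.43). Both patterns differ from the TPM of the first quantification, in which library 2 was lowest for all 10 genes. In the TPM of the second quantification library 3 was lowest for all 10 genes instead. Ddx58, for example, was there at 13.1, 7.60 and 7.06 TPM, and Ifi204 at 55.0, 33.8 and 25.2 TPM in libraries 1, 2 and 3. Which library is lowest in TPM thus depends on the quantification. The median range over the 10 genes was 0.24 on the log2 scale, against 0.28 over all tested genes and 0.20 over the 3817 tested genes within the members' span of levels.

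Library 2 gave the lowest value for 7 of the 10 genes on the log2 CPM scale, as it did for 31.9% of all tested genes. These 7 were Ddx58, Ifih1, Mavs, Aim2, Ifi203, Ifi209 and Mndal. Ddx58 was at 7.11, 6.97 and 7.25 log2 CPM, and Ifih1 was at 6.59, 6.39 and 6.68 log2 CPM. Aim2 was at 5.23 and 5.22 log2 CPM in libraries 1 and 3 and lower by 0.24 in library 2 than in library 1. Mndal was at 6.96, 6.72 and 6.93 log2 CPM, and Ifi203 at 7.95, 7.73 and 7.89. Dhx58 and Ifi205 were lowest in library 1 and Ifi204 in library 3. In TPM, the members' median difference between libraries 1 and 2 was 0.61 on the log2 scale, beside 0.48 for protein-coding genes. Ifnb1, the interferon-beta gene downstream of MAVS and of Toll-like receptor 4, was also lowest in library 2, at 4.23, 2.36 and 4.06 log2 CPM (adjusted p = 4.32e-07, edgeR goodness of fit). In bulk libraries, fewer cells with a gene's RNA and less RNA per cell cannot be told apart. The part of Malat1, Neat1 or Ifnb1 levels in the members' pattern was not tested.

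**Figure D2:**
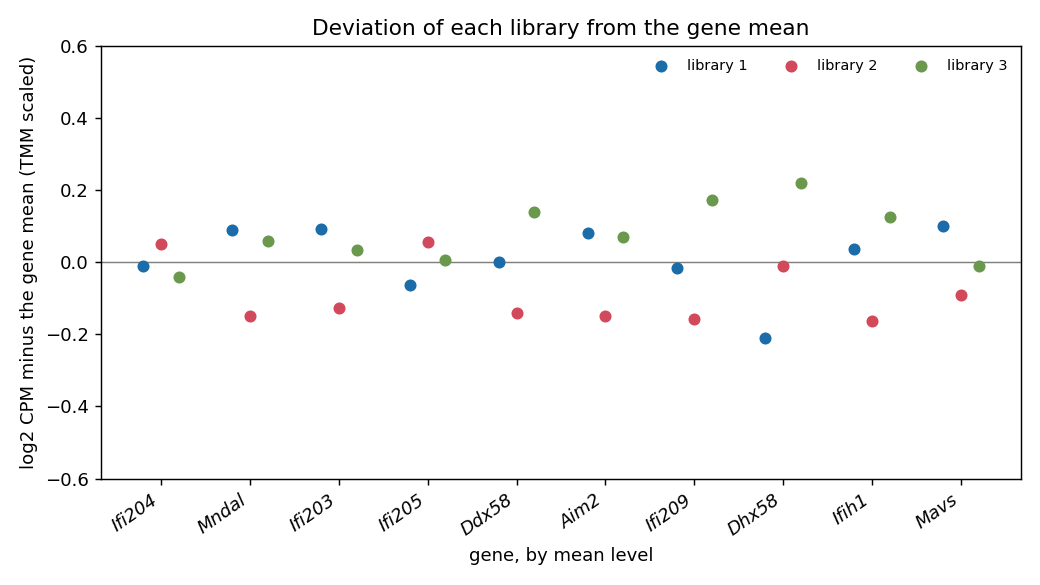
Deviation of each library's log2 CPM (TMM scaled) from the gene's mean, in the order of mean TPM. Deviations stay within 0.22 of 0, library 2 is lowest for 7 of the 10 genes, and Dhx58 has the widest range.

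The genes whose pattern over the 3 libraries was most like that of Dhx58, by Euclidean distance of the log2 CPM deviations, were Ddx49, H2afz, Ramac, Vasp and Ndufb5, at distances from 0.0097 to 0.0174. This likeness rests on 3 libraries.

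The genes that work with the sensors were present at varied levels. Of 14 signalling genes below MAVS, all were at 1 TPM or more in the 3 libraries, with a median of 15.0 TPM. The transcription factor Irf7 was highest, at 54.9, 45.3 and 67.3 TPM. It was followed by the kinase Ikbke at 24.4, 24.3 and 31.6 TPM and by Tank, a scaffold of these kinases, at 24.5, 23.5 and 28.4 TPM. The adaptor Tradd was lowest, at 4.32, 4.38 and 5.70 TPM. Ifnb1, given above, was the only one of the 14 called as varying. Of 20 regulators of the RIG-I-like receptors, 18 were at 1 TPM or more, with a median of 13.3 TPM, and none of the 19 tested was called. Pcbp2, which is known to promote MAVS degradation, was the highest of them, at 230.3, 133.4 and 202.8 TPM. Zcchc3, a co-receptor of these sensors, was lowest, at 0.08, 0.09 and 0.07 TPM.

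The 12 genes of the list on cytosolic DNA sensing through cGAS, STING and related sensors had a median of 3.73 TPM. All were at 1 TPM or more, and none was called. Zbp1, a sensor of Z-form nucleic acids, was highest, at 38.0, 21.7 and 34.5 TPM, above Aim2 in each library, followed by Polr3c, a subunit of RNA polymerase III, at 9.47, 6.56 and 9.59 TPM. Tmem173, which encodes STING, came next at 8.37, 4.31 and 8.75 TPM. Zdhhc1 was lowest, at 1.87, 1.81 and 2.04 TPM. The 7 inflammasome genes had a median of 28.5 TPM and none was called. Il1b led them at 897.9, 599.9 and 960.3 TPM, followed by Nlrp3 at 102.7, 95.4 and 132.2 TPM and the protease gene Casp1 at 38.5, 26.6 and 38.3 TPM. The lowest of the 7 was Il18, at 14.3, 10.2 and 14.6 TPM.

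The list for endosomal sensing, which holds Toll-like receptors of nucleic acids together with their trafficking and chaperone genes, had a median of 73.6 TPM over 8 genes, and none was called. Unc93b1, which escorts these receptors to endosomes, was highest, at 224.2, 160.5 and 191.3 TPM, and Tlr3 was lowest, at 5.94, 3.49 and 4.86 TPM. The 13 genes that remove or modify self nucleic acids had a median of 57.1 TPM, and none was called. Pld3, a lysosomal exonuclease, led them at 477.0, 360.4 and 392.1 TPM, and Rnaseh2b, a subunit of RNase H2, was lowest at 4.57, 3.73 and 5.11 TPM. Beside them, the interferon-inducible Ifit family had 2 of 6 genes called (Ifit1 and Ifit1bl1) and the Oas family 0 of 8. Whether these families vary more than the sensors was not tested.

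The 5 Ifi200 genes and Aim2 lie among 8 further genes of the same cluster, and these were far apart in level. Ifi207 was the highest gene of the cluster, at 210.9, 125.3 and 190.1 TPM, above Ifi204 in 3 of 3 libraries (0.67 ± 0.19 on the log2(TPM + 1) scale, SD, n = 3). Ifi211 was at 103.1, 77.7 and 105.0 TPM. Ifi206, Ifi213 and Ifi208 had means of 8.39, 6.57 and 2.52 TPM. The pseudogene Ifi203-ps and Ifi214 stayed below 1 TPM in each library, with means of 0.747 and 0.130 TPM. Ifi202b had 2, 2 and 0 expected counts in libraries 1, 2 and 3 in the first quantification, under the floor of 3 counts, and 33, 29 and 6 estimated counts in the second, whereas its neighbours Ifi203 and Ifi205 had at least 7607 and 3027 in each library in the first. Of the summed TPM of all 14 genes, 602 ± 122, the 6 genes described held 52.1% ± 0.963 and Ifi207 held 28.9% ± 1.75 (SD, n = 3). No gene of the cluster was called as varying (0 of the 12 tested).

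**Figure D3:**
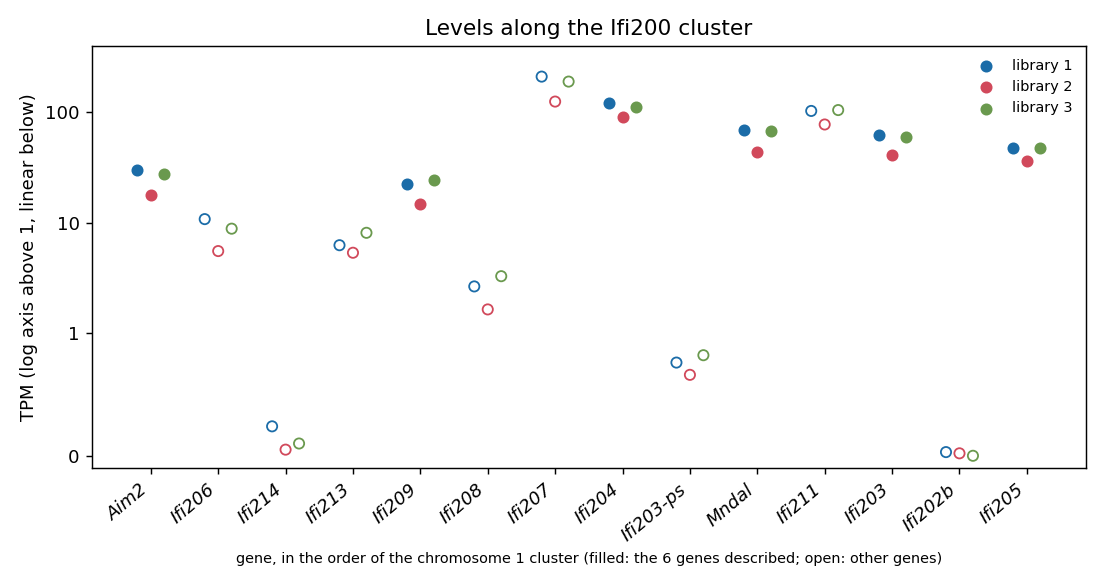
TPM of the 14 genes of the cluster in chromosome order, each library as a point (log axis above 1 TPM, linear below; filled points mark the 6 genes described). Ifi207, Ifi204 and Ifi211 are highest, whereas Ifi214, Ifi203-ps and Ifi202b stay below 1 TPM in each library.

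Because the family arose by duplication, reads of 1 copy can match another. Of the distinct 31-base words in the annotated transcripts of Ifi209, 47.2% also occurred in another gene, nearly all of them in Ifi214 (46.8%), which was itself near 0. The share was 34.0% for Ifi204, 28.7% for Mndal, 22.1% for Ifi205 and 21.6% for Ifi203. Ifi211 was the leading partner of Ifi204 (18.9%), Ifi205 (20.5%) and Mndal (11.9%). The RIG-I-like genes shared little: 2.00% for Ddx58, 0.182% for Dhx58, 0.135% for Ifih1 and 0% for Mavs, and Aim2 shared 4.89%. The deposited posterior SD of the gene count, which reflects how uncertain the division of shared reads was, reached at most 0.938% of the count, for Ifi205. A second quantification of the same libraries gave mean count ratios to the first of 1.10 (Mavs) to 1.23 (Ifi205) for the 10 genes, beside a median ratio of 1.13 for detected protein-coding genes. Levels of the Ifi200 genes still depend on how such reads are divided.

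Each of the 10 genes had the same leading transcript in 3 of 3 libraries, out of 57 annotated transcripts. Transcripts annotated as protein-coding held 88.1% ± 0.889 of the members' summed TPM (SD, n = 3), and 82.9% ± 2.05 in the second quantification. Ifi209-201, Ifi204-201, Dhx58-201 and Ifi205-201 led their genes with mean shares of 99.7%, 97.0%, 93.7% and 92.9% in the first quantification and 87.0%, 93.7%, 82.0% and 90.4% in the second. For Ifi209 the rest in the second quantification, 12.95%, was annotated to nonsense-mediated decay, and for Dhx58 the rest, 18.0%, had no coding frame. Mavs-201 held 67.6% ± 4.55 and Mavs-202 28.8% ± 7.19, and these have coding sequences of the same length, 1509 bases. In Ifi203, Ifi203-202 led 4 other coding transcripts at 32.6% ± 0.705 in the first quantification and 39.1% ± 4.69 in the second.

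Ddx58-201, the full-length coding transcript of 18 exons, held 74.2%, 73.2% and 72.1% of Ddx58 TPM in libraries 1, 2 and 3. Most of the rest was Ddx58-205, a transcript of 9 exons without a coding frame that starts inside the gene at position 40220600, with 23.5%, 24.9% and 26.9%. The second quantification put Ddx58-205 lower, at 13.8% ± 1.81 (SD, n = 3). In Aim2, Aim2-204 held 37.4% ± 0.940 and Aim2-205 31.1% ± 3.43, and in the second quantification neither led in all libraries. Aim2-206, without a coding frame, held 24.9% ± 4.26. It is 383 bases long, and this share rests on 56, 37 and 69 expected counts in libraries 1, 2 and 3. Aim2-204, of 2079 bases, had 899, 806 and 928. Because TPM divides by length, the shares of Aim2 transcripts in TPM differ much from those in counts. In Ifih1 the quantifications named different leaders: Ifih1-201, with 3075 coding bases, held 51.3% ± 5.28 in the first and 22.0% ± 1.27 in the second, in which Ifih1-202, with 2928 coding bases, led at 33.2% ± 5.85. The leading transcript of Ifih1 therefore depends on the quantification.

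**Figure D4:**
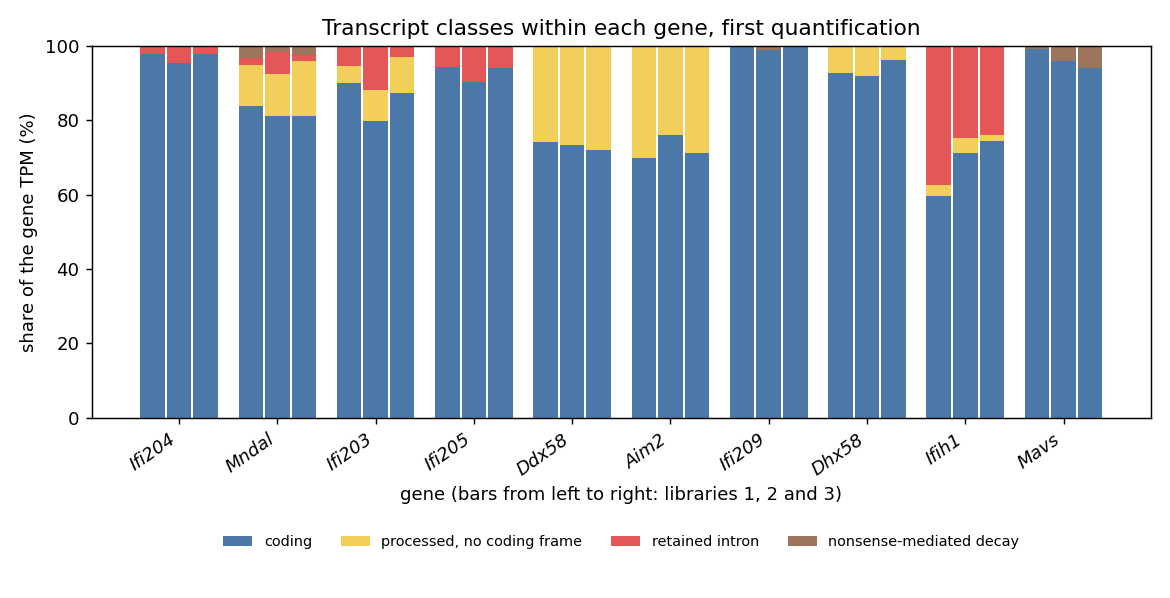
Share of each gene's TPM in annotated transcript classes, first quantification, with bars for libraries 1, 2 and 3 from left to right. Ifi209, Ifi204 and Mavs are nearly all coding, Ddx58 and Aim2 carry 26.8% and 27.7% on average in transcripts without a coding frame, and Ifih1 has the largest retained-intron share. For Aim2 this is mostly Aim2-206, of 383 bases, on 56, 37 and 69 expected counts.

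The leading Mndal transcript is annotated to start where transcripts of Ifi203 start. Mndal-201 held 69.0%, 63.6% and 64.1% of Mndal TPM in libraries 1, 2 and 3 (mean 65.6% ± 2.96, SD, n = 3), and 58.0% ± 2.35 in the second quantification. Its annotated start, position 173942491, is also that of Ifi203-205 and Ifi203-206. Its first exon, of 37 bases (chr1:173942455-173942491), is identical to an Ifi203 exon, and its other 9 exons lie beyond Ifi203. The start of Mndal-204, which has the same coding length of 1614 bases, lies 62186 bases away at position 173880305, not far from the Mndal RefSeq start at position 173880187. Mndal-204 held far less, with 0.57 TPM in library 1 beside 48.0 TPM of Mndal-201. Other transcripts from this region held more of the TPM. Mndal-209, without a coding frame, starts at position 173880187 and held 9.90% ± 3.21 of Mndal TPM, and 14.7% ± 2.67 in the second quantification. It is 367 bases long and had 30, 39 and 76 expected counts in libraries 1, 2 and 3. Mndal-204, of 2026 bases, had 44, 41 and 94, so Mndal-209 held more in TPM but not in counts. The coding Mndal-208 starts at position 173880111 and held 5.46% ± 0.785, and 5.60% ± 1.38 in the second (SD, n = 3). The span of Mndal thus contains Ifi211 and overlaps Ifi203 on the same strand, and a strand setting could not tell their overlapping parts apart. As printed above, the 30 bases around the response element match are the same letters at both RefSeq starts. How many reads fell on the shared first exon was not analysed here.

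Retained-intron transcripts, which keep at least 1 intron and are not annotated as coding, were present for 5 of the 10 genes. Ifih1 had most, with 37.3%, 24.8% and 24.0% of its TPM in libraries 1, 2 and 3, highest in library 1. Most of this was Ifih1-203, at 20.98% ± 5.35 of Ifih1 TPM (SD, n = 3). In the 4 Ifi200 genes with such a transcript the share was lower and highest in library 2. For Ifi203 it was 5.45%, 11.7% and 3.08%. For Ifi205 it was 5.80%, 9.69% and 5.81%, for Ifi204 2.21%, 4.46% and 2.24%, and for Mndal 1.72%, 5.91% and 1.80%. Thus 4 of the 5 genes, all but Ifih1, were highest in library 2, beside 47.0% of the 5811 detected genes with a retained-intron transcript. The median shares of those 5811 genes were 0.866%, 1.71% and 0.934%. In the second quantification it was the same 4 of 5 beside 53.1%. Library 2 is also the library with the most Malat1 and Neat1, given above, and their part in this pattern was not tested.

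**Figure D5:**
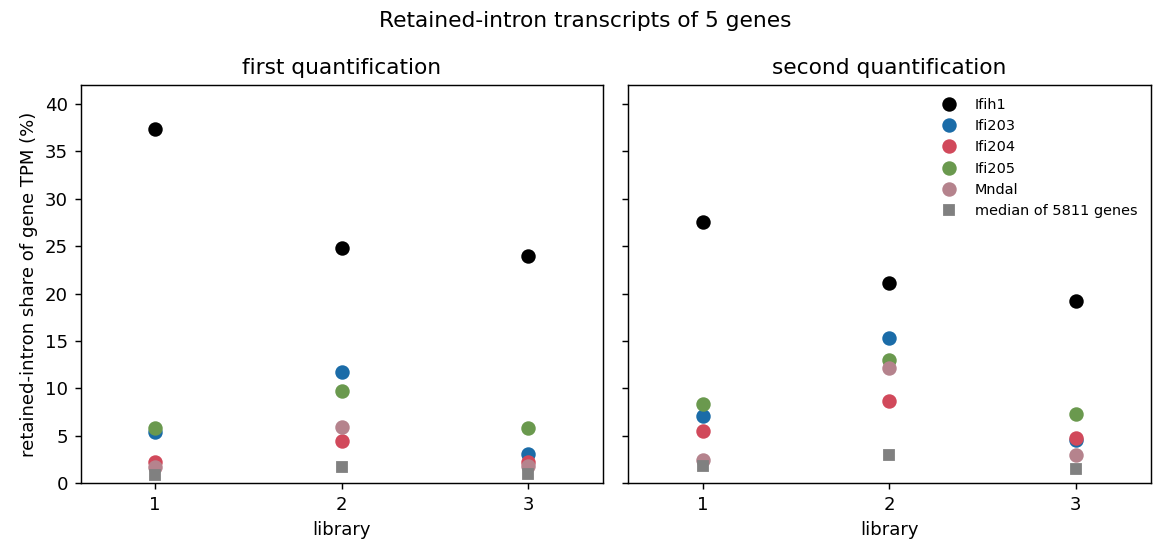
Retained-intron share of gene TPM by library for the 5 genes with such a transcript (coloured points) and the median over 5811 detected genes (grey squares), in both quantifications. Ifi203, Ifi204, Ifi205 and Mndal are highest in library 2, and Ifih1 in library 1.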

How the data were processed

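Per the labels, ribosome-depleted total RNA of the cytosolic fraction was sequenced and quantified on mm10 with GENCODE M21. For aligner, quantification tools, versions and strand setting: not given in the sources used here. The authors deposited gene and transcript tables with expected counts and TPM (first quantification) and transcript tables with estimated counts and TPM (second quantification), which were summed per gene here. Rows that are not annotated genes held 0.365%, 0.162% and 0.0200% of counts in libraries 1, 2 and 3 and were left out. Expected counts were rounded. Genes passing filterByExpr were scaled by TMM and tested with edgeR 4.0.16 (R 4.3.3): a fit with an intercept only, trended dispersion, the chi-square goodness of fit and Benjamini-Hochberg adjustment over 12231 genes, with 0.05 as the threshold. log2 CPM used a prior count of 0.5. Levels were compared as log2(TPM + 1). The test was tried on simulated counts of 12231 genes. DESeq2 1.42.0 gave size factors and dispersions for alternatives. Shared words of 31 bases were counted in the annotated transcripts on the sense strand, and promoter pairs were aligned globally with Biopython 1.88.

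The 10 genes and all lists were chosen with earlier results of these data known. All 10 genes were named. Of each pathway list the 3 highest by mean TPM, the lowest and any gene called were eligible to be named, with all genes of the cluster and the 5 genes nearest to Dhx58 in pattern. The Ifit and Oas genes and the nuclear RNAs Malat1 and Neat1 were named outside this rule, after their values were seen. Alternatives are given in the closing section.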

Additional observations from a re-analysis of the deposited data

How the results depend on the processing

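Leaving aside the members' adjusted p-values, which stayed between 0.922 and 1 and so say little about stability, 45 of 49 values recomputed under alternatives kept their direction and call or moved by less than the spread between libraries. This tally is no measure of stability, because some of the 49 could hardly change. The count of members varying restates the p-values. The lowest member TPM in any library was 8.67, so detection at low minima, and limiting to members at 1 TPM, altered nothing. The members' median level of 26.5 TPM became 79.0 TPM when TPM was rescaled over protein-coding genes and 9.53 TPM in the second quantification, in which detected protein-coding genes as a whole had 0.456, 0.372 and 0.228 times their first TPM in libraries 1, 2 and 3. The coding share fell from 88.1% to 82.9%, and the share of Mndal TPM in Mndal-201 from 65.6% to 58.0%, in the second quantification. Members were ranked anew under each alternative, so the neighbouring pairs are not always the same. In the second quantification 6 pairs, rather than 7, kept 1 order, and the ranking itself changed. By mean TPM, Aim2 (9.80) was there above Ddx58 (9.26), and Ifih1 (8.12) was above Dhx58 (7.30) and Ifi209 (7.29). Leaving out each library in turn gave 24.4 to 30.2 TPM for the median level, 87.8% to 88.6% for the coding share, 7 to 8 neighbouring pairs in 1 order, -1.24 to -1.12 for Mavs minus Ddx58, and 10 genes detected, 10 with the same leading transcript and 0 varying each time. Over all genes the number called as varying was 132, 91 and 89 without libraries 1, 2 and 3, against 203, and 298 with a common dispersion; fewer libraries enter the former. No paired analysis was possible because the design has only 1 group. Rescaling the second quantification for Mavs and Ddx58, and the alternatives for the Ifih1 and Mndal shares, were chosen after seeing the data. The authors' deposited intervals of TPM overlapped for Ddx58 and Aim2 in library 1 (29.7 to 31.97 and 27.6 to 33.5) and library 2 (19.6 to 21.1 and 16.4 to 19.9). Those of Mndal and Ifi203 overlapped in library 2 (41.8 to 46.2 and 39.8 to 42.2). The order of each pair in those libraries is thus within the estimation error of a library.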

Other observations

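The letters GAAANNGAAA also occurred near the starts of related interferon-inducible genes. Among the other genes of the Ifi200 cluster 6 of 7 with a RefSeq promoter held a match, in the Ifit family 5 of 6 and in the Oas family 4 of 6, beside 3.99% of all 27025 genes in the table. Among these 7, Ifi207 and Ifi211, which were high, held a match. So did Ifi206, Ifi213, Ifi208 and Ifi214, at means of 8.39, 6.57, 2.52 and 0.130 TPM. Ifi202b, with 2, 2 and 0 expected counts in the first quantification and 33, 29 and 6 in the second, was the gene of the 7 without a match. Aim2 and Ifi209, of the same cluster, also held none in the windows searched, at means of 25.2 and 20.4 TPM. These lists were picked by name, and no test was made.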
